A study of Mus musculus with 21 samples.

Results

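Cadherins are calcium-dependent adhesion molecules, and 7 of their genes were followed here through the formation of the mouse testis: Cdh1, Cdh2, Cdh3, Cdh4, Cdh6, Cdh11 and Cdh13. The members were all probe sets whose gene symbol in the platform's annotation was one of these names, 16 probe sets of the 34945 that carried 1 gene. After a filter on dim probe sets 13 of the 16 were kept, at least 1 for each gene, so that all 7 genes were among the 14338 tested of 18193 on the array. A gene was represented by its kept probe set with the highest mean level over the testis arrays, and its other probe sets are given beside it.

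Whole testes were excised from male CD-1 mice (an outbred stock, wild type) of time-mated dams at gestation day (gd) 11 (Theiler stage 18, 5 arrays), gd12 (stage 20, 3 arrays), gd14 (stage 22, 3 arrays), gd16 (stage 24, 3 arrays), gd18 (stage 26, 3 arrays) and postnatal day (pnd) 2 (stage 27, 3 arrays). Per the labels, each gd11 sample was a pool of 2 and each gd12 sample a pool of 5, with no pooling later. The series' design text instead describes triplicates of single animals, and where the 2 differ, at gd11 and gd12, the sample labels were used. A single array of 8 pooled whole newborns, 4 male and 4 female, at pnd 0.5 (wild type, strain not labelled) served as a whole-litter reference.

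A classical cadherin binds the same cadherin on a neighbouring cell with its extracellular repeats and holds catenins with its cytoplasmic tail, which tie the junction to actin. The type I members here are Cdh1 (E-cadherin), Cdh2 (N-cadherin), Cdh3 (P-cadherin) and Cdh4 (R-cadherin), and the type II members are Cdh6 (K-cadherin) and Cdh11 (OB-cadherin). Cdh13 (T-cadherin) is held in the membrane by a lipid anchor and lacks the cytoplasmic tail, so by structure it is not a classical cadherin, although it is counted with them here. In the mouse gonad E-cadherin is known from primordial and fetal germ cells and from duct epithelium, and N-cadherin from contacts between Sertoli cells and germ cells.

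Levels are intensities on a linear scale, and differences are of log2(intensity + 22.4), later minus earlier stage, from 1 limma fit over the 20 testis arrays. A difference was called at a Benjamini-Hochberg adjusted p below 0.05 over all genes tested. Below an intensity of 71.6 a level is termed near background. The number of arrays limits the precision, the spread is between arrays (pools at gd11 and gd12), and in whole tissue fewer cells of a type cannot be told apart from less RNA per cell. Levels of different genes are not set against each other, since probe sets differ in brightness.

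The labelled tissue held its markers: all 10 Sertoli cell markers were above background from gd12 on, with sums between 22933 and 37012 at gd12 and between 71371 and 80138 at pnd2. At gd11, Sertoli markers summed to between 3105 and 9171, and Amh, Ptgds, Cst9 and Defb19 were near background. The gd11 arrays were uneven. Summed over 11 measured neural markers of 12, the intensity was 78426 in gd11 replicate 16 and 45691 in replicate 17, against 4373 to 9594 in replicates 18 to 20. Among gd12 arrays the neural sum was 4225 in replicate 13, 2886 in replicate 14 and 1066 in replicate 15. Differences against gd11 are given below with all 5 arrays, and also without replicates 16 and 17 for the called members and for the adhesion gene lists. For the lists that fit was added after seeing the data.

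All cadherin calls between adjacent stages lay in the steps up to gd16. The share of all genes called was also lower after it, and with 7 genes these counts do not set the cadherins apart. Between gd12 and gd11, 2 of the 7 genes were called, both lower (Cdh2 and Cdh6), where 21.4% of all genes were called either way and 10.2% were lower. Between gd14 and gd12, 1 member was called (Cdh2, lower), against 18.7% of all genes. Between gd16 and gd14, 1 member was called (Cdh1, lower), against 10.4% of all genes. Between gd18 and gd16 limma called 0 members and 4.88% of all genes. There, 1 member (Cdh1) had an unadjusted p below 0.05, and 1 member was called in a limma fit of those stages alone. Between pnd2 and gd18 limma called 0 members and 7.8% of all genes, and 0 members had an unadjusted p below 0.05. No other setting called a member in that comparison.

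Across the whole course, pnd2 against gd11, 6 of the 7 members were called, where 48.6% of all genes were. Of these 5 were lower (Cdh1, Cdh2, Cdh4, Cdh6 and Cdh11), against 24.4% of all genes, and 1 was higher (Cdh3), against 24.2%. The median difference was -0.88 over the members and -0.03 over all genes. A moderated F-test over the 6 stages called 5 of the 7 members (Cdh1, Cdh2, Cdh4, Cdh6 and Cdh11) and 68.3% of all genes. The comparison of pnd2 with gd11 uses the same arrays as the first and last adjacent steps and is not independent of them.

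**Figure D1:**
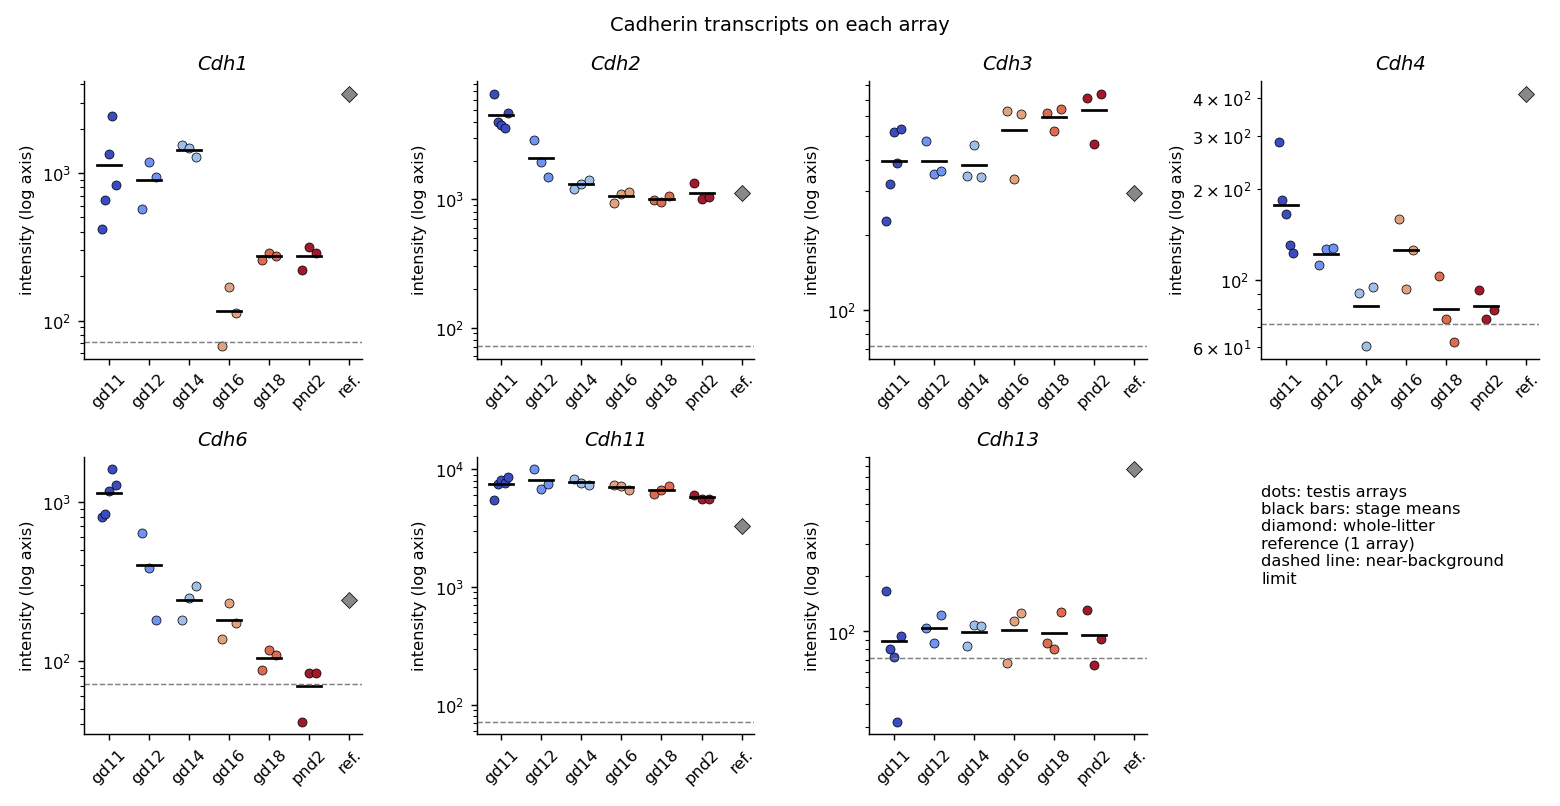
Intensity (log axis) of the 7 cadherins on each testis array by stage and on the whole-litter reference (diamond, 1 array). Dots are arrays, black bars are stage means and the dashed line is the near-background limit of 71.6. Cdh1 dropped to 67.1 to 168 at gd16, Cdh2 and Cdh6 were highest at gd11, and Cdh13 lay close to the limit at every stage in the testis.

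Cdh1, the epithelial cadherin, had the sharpest single step of the family. Its intensity averaged 1138 ± 806 at gd11, 899.8 ± 311 at gd12, 1438 ± 133 at gd14, 116 ± 50.6 at gd16, 273 ± 15 at gd18 and 274 ± 48.3 at pnd2 (SD, n = 5 at gd11 and 3 at each later stage). On the arrays it read 67.1, 168 and 113 at gd16, against 1553, 1469.95 and 1292 at gd14. The lowest gd14 array thus lay well above the highest gd16 array, and 1 gd16 array was near background. The mean was 12.4-fold lower at gd16, a log2 difference of -3.46 ± 0.43 (SE, limma adjusted p = 0.000109). It was called under all 31 alternative settings, between -3.72 and -2.85.

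Only 4 of the 14338 genes tested had a lower value for that step than Cdh1. They are named after their values were seen: Dppa3 (-4.45, stage means of 751 at gd16 and 14012 at gd14), a gene of primordial germ cells, Sox2 (-4.45, 47.8 at gd16, near background, and 1387 at gd14), a pluripotency factor, and the embryonic globins Hba-x (-4.00) and Hbb-y (-3.82). Germ cell markers were among those that moved in the same step. Of 8 measured of a list of 10, 3 fell (Dppa3, Pou5f1 by 1.33 and Dazl by 1.25 on the log2 scale), 0 rose and 5 did not pass the test (Ddx4, Mael, Tdrd1, Dnd1 and Kit). Of all genes, 10.4% were called either way in that step. Ddx4, an RNA helicase of germ cells, differed by -0.65 (adjusted p = 0.224), and Mael, of the piRNA pathway, by -0.02 (adjusted p = 0.987). The germ cell sum lay between 19992 and 26349 at gd16, against 42212 to 48467 at gd14, with no marker near background at either stage. The part of germ cells in the Cdh1 result was not tested.

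**Figure D2:**
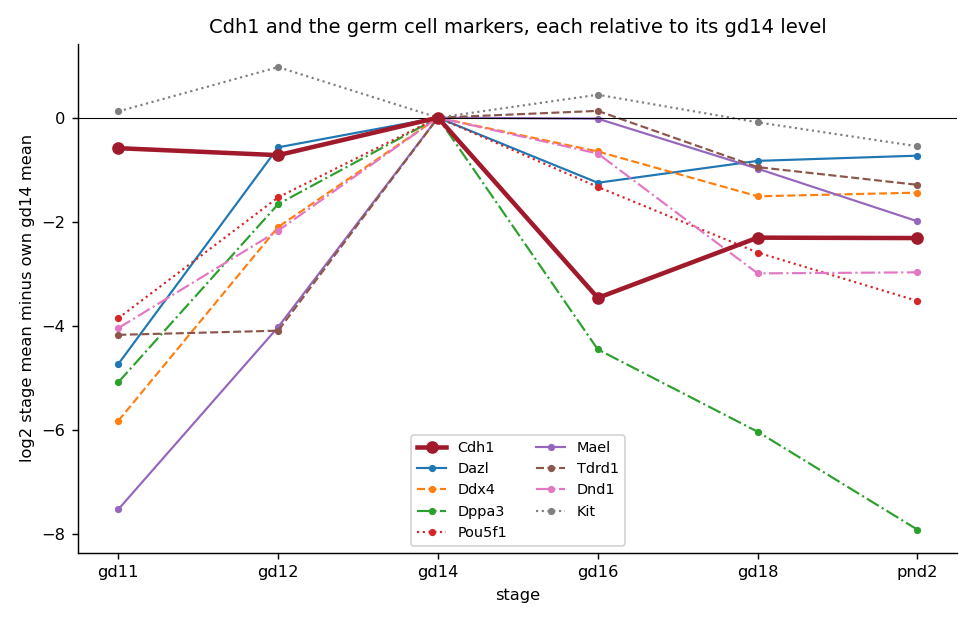
Log2 stage mean of Cdh1 (thick line) and of the 8 measured germ cell markers, each minus its own gd14 mean, by stage. Between gd14 and gd16 Cdh1 (-3.46) and Dppa3 (-4.45) had the lowest values, Mael (-0.02) barely differed, and Tdrd1 and Kit lay above their gd14 levels. At gd11 Cdh1 and Kit lay near their gd14 levels and the other markers far below theirs.

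After gd16 the Cdh1 means were higher again, but the step did not pass the test. The arrays read 257, 287 and 275 at gd18, against 67.1, 168 and 113 at gd16, without overlap, and the log2 difference was 1.16 ± 0.43 (limma adjusted p = 0.138). It passed in 4 of 31 alternatives, with the 2 stages alone (adjusted p = 0.0265), with array weights and no intensity trend (1.26, 0.0244), without gd11 replicates 16 and 17 (0.0264) and without gd11 replicate 19 (0.0495). At pnd2 the arrays read 220.2, 314 and 286, against the gd18 values above, and the difference was -0.01 ± 0.43. The order of the stages, highest first, was gd14, gd11, gd12, pnd2, gd18 and gd16. Neighbours in that order overlapped except gd12 over pnd2 and gd18 over gd16.

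Cdh1 was also the member most uneven among the gd11 arrays. Replicates 16 to 20 read 419.8, 661, 1335, 2449 and 826. Their order was that of the summed mesonephros and duct epithelium markers (9 measured of 11), which read 4413, 5940, 9988, 13198 and 7653 in the same arrays. The summed mesothelium and surface epithelium markers (7 measured of 7) had the same order, with 4329, 5626, 11976, 12945 and 8530. The low place of replicate 16 is not particular to these lists, since the germ cell, Sertoli, fetal Leydig and stromal sums were also lowest there. The neural sum had the reverse order. At gd14, by contrast, Cdh1 lay between 1292 and 1553 while the duct sum was between 3020 and 3376, with Gata3 and Wnt9b near background. The part of duct epithelium, mesothelium or neural tissue in the Cdh1 level was not tested.

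Over the whole course Cdh1 fell: 274 ± 48.3 at pnd2 against 1138 ± 806 at gd11, -1.73 ± 0.38 on the log2 scale (limma adjusted p = 0.000983), with no overlap between the arrays. The difference was -2.27 (adjusted p = 6.45e-06) without gd11 replicates 16 and 17. Cdh1 had 1 probe set, so the gene has no second reading.

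Cdh2, the neural cadherin, was highest in the earliest gonads, and no adjacent step after gd14 was called. It averaged 4573 ± 1257 at gd11, 2118 ± 725 at gd12, 1313 ± 105 at gd14, 1062 ± 117 at gd16, 1000.1 ± 48.6 at gd18 and 1128 ± 182 at pnd2. The gd12 arrays read 2909, 1958 and 1487, against 6693, 4055, 3829, 3583 and 4706 at gd11. Every gd12 array was below every gd11 array, and the difference was -1.12 ± 0.19 (limma adjusted p = 0.000367). The second probe set, with means of 777 at gd12 and 1766 at gd11, differed by -1.14 ± 0.18 (adjusted p = 0.000228).

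Neural markers moved in the same step: of 11 measured, 6 fell, 0 rose and 5 did not pass, where 10.2% of all genes fell. Without gd11 replicates 16 and 17, 3 fell, where 10.2% of all genes fell as well. Elavl3, Snap25 and Dcx were near background at gd12. The neural sum lay between 1066 and 4225 at gd12, against 4373 to 78426 at gd11. Without gd11 replicates 16 and 17, where that sum was highest, the Cdh2 difference was -0.97 (adjusted p = 0.000611). Without gd12 replicates 13 and 14 it was -1.57 (adjusted p = 0.000371).

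The next Cdh2 step was less firm. The gd14 arrays read 1203, 1325 and 1412, against 2909, 1958 and 1487 at gd12, with no overlap, and the difference was -0.63 ± 0.21 (limma adjusted p = 0.0446). The second probe set gave -0.59 ± 0.20 (adjusted p = 0.0516). The call was lost in 19 of 31 alternatives. Leaving out gd12 replicate 13 brought the difference to -0.38 (adjusted p = 0.243), and leaving out gd12 replicates 13 and 14 to -0.18 (adjusted p = 0.762). Removal of gd11 replicate 20, gd12 replicate 14, any 1 gd14, gd16 or gd18 array, or pnd2 replicate 2 or 3 also ended the call, with adjusted p between 0.05 and 0.137 and differences between -0.68 and -0.57.

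From gd14 on the Cdh2 arrays lay between 929.8 and 1412, and no adjacent step was called. Every gd16 array (929.8 to 1151) still lay below every gd14 array (1203 to 1412). The differences were -0.30 ± 0.21 for gd16 against gd14, -0.08 ± 0.21 for gd18 against gd16 and 0.16 ± 0.21 for pnd2 against gd18. Over the whole course the Cdh2 mean fell 4.05-fold, a log2 difference of -1.97 ± 0.19 (limma adjusted p = 7.77e-08). It was -1.82 (adjusted p = 6.16e-08) without gd11 replicates 16 and 17, and with all arrays the second probe set gave -1.76 ± 0.18. In order, highest first, the stages were gd11, gd12, gd14, pnd2, gd16 and gd18, and the arrays of the last 4 overlapped from neighbour to neighbour.

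**Figure D3:**
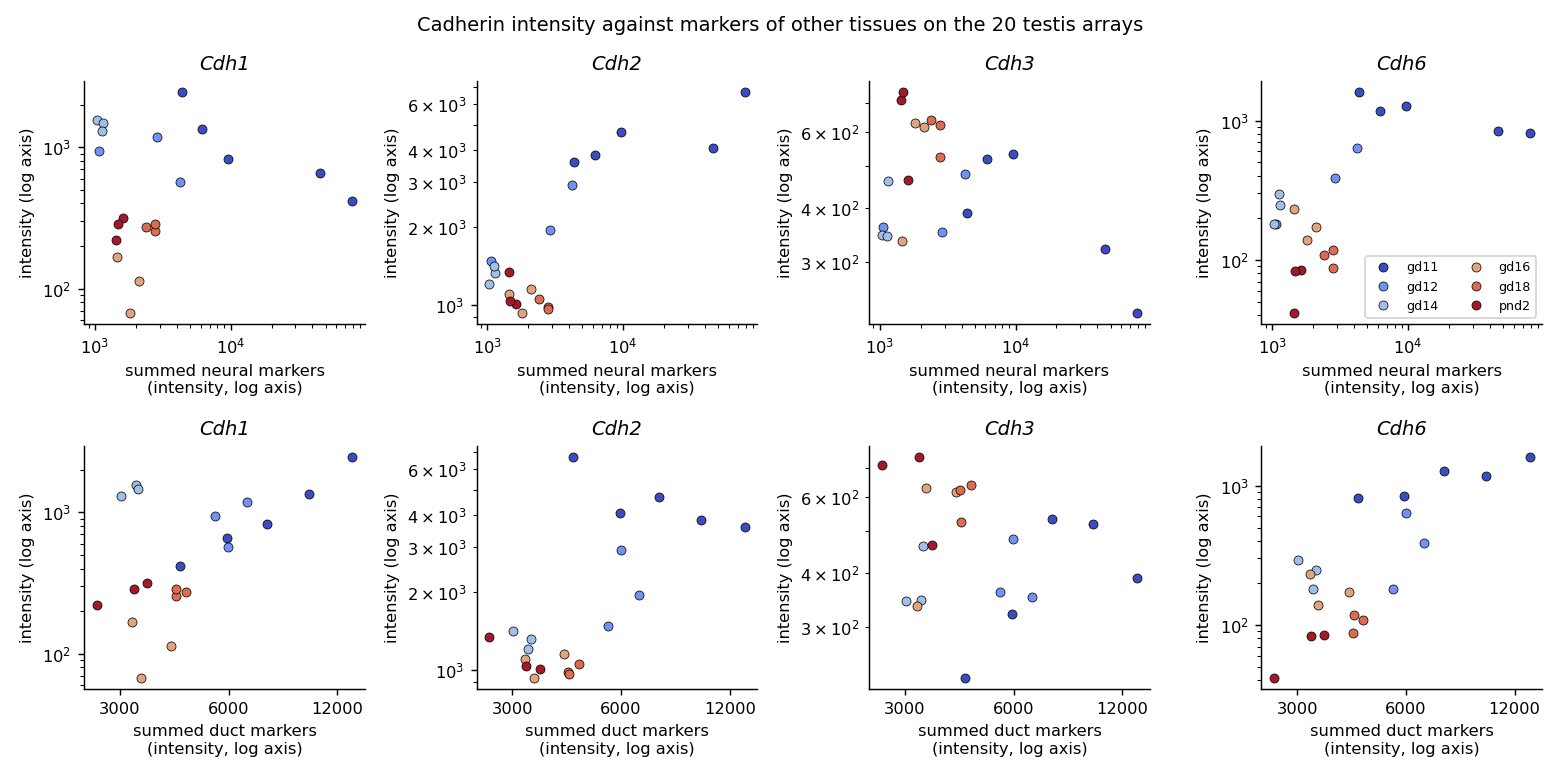
Intensity of Cdh1, Cdh2, Cdh3 and Cdh6 (log axis) against the summed neural markers (upper row) and the summed mesonephros and duct epithelium markers (lower row, both log axes) on each of the 20 testis arrays, coloured by stage. At gd11 Cdh1 followed the order of the duct sum, up to 2449 where that sum was 13198, as it did that of the mesothelium sum, which is not drawn. Cdh3 was lowest (228) where the neural sum was highest (78426).

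Cdh3, known from basal layers of epithelia, was the only member called higher at pnd2 than at gd11. It averaged 398 ± 130.1 at gd11, 398 ± 71.0 at gd12, 383 ± 66.8 at gd14, 527 ± 165 at gd16, 595 ± 61.1 at gd18 and 639 ± 151 at pnd2. The pnd2 arrays read 712, 465 and 740.2, against 228, 322, 519.8, 389 and 533 at gd11. The groups overlapped, since the lowest pnd2 array lay below the 2 highest gd11 arrays.

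The log2 difference in Cdh3 was 0.69 ± 0.25 (limma adjusted p = 0.0275), while the F-test over the stages gave an adjusted p of 0.06, which missed the threshold. The call was lost in 8 of 31 alternatives. Without gd11 replicates 16 and 17, which had the lowest Cdh3 and the highest neural sums, the difference was 0.38 (adjusted p = 0.169). It was 0.51 (0.0613) without replicate 16 alone and 0.63 (0.0564) without replicate 17 alone, and 0.60 (0.107) and 0.57 (0.122) without pnd2 replicate 1 or 3. The other Cdh3 probe set was near background on 14 of 20 testis arrays and differed by 0.17 ± 0.34 (adjusted p = 0.719). No adjacent step was called, and neighbours in the order of the stages all overlapped.

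Cdh3 and Cdh1 are neighbours in the mouse annotation, with 3 loci and 0 protein-coding genes between them. Their values ran apart on these arrays, with Pearson r = -0.49 and Spearman rho = -0.51 over 20 arrays that share their stages and tissue makeup. For the step between gd16 and gd14, Cdh3 differed by 0.40 ± 0.28 (limma adjusted p = 0.397), where Cdh1 fell by 3.46.

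Cdh4, the retinal cadherin, was dim throughout. It averaged 177 ± 64.9 at gd11, 122 ± 8.45 at gd12, 82.0 ± 18.8 at gd14, 126 ± 32.7 at gd16, 80.1 ± 21 at gd18 and 82.3 ± 9.35 at pnd2. The pnd2 arrays read 92.7, 74.5 and 79.7, against 285, 183, 165, 131 and 123 at gd11, without overlap. Cdh4 fell by 0.88 ± 0.24 on the log2 scale (limma adjusted p = 0.00464), and a second probe set gave -1.10 ± 0.24 (adjusted p = 0.00106). Replicate 16, with the highest neural sum, also had the highest Cdh4, and without replicates 16 and 17 the difference was -0.63 (adjusted p = 0.0347). The remaining probe set read between 1.53 and 76.1 and was removed by the filter. In order, highest first, the stages were gd11, gd16, gd12, pnd2, gd14 and gd18, and neighbours overlapped except gd12 over pnd2.

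Cdh6, a type II cadherin known from the fetal kidney and the neural crest, declined furthest over the course. It averaged 1139.55 ± 327 at gd11, 402 ± 229.8 at gd12, 241 ± 57.3 at gd14, 181 ± 47.4 at gd16, 105 ± 15.5 at gd18 and 69.9 ± 24.6 at pnd2. The pnd2 arrays read 41.5, 84.3 and 83.8, against 808, 842, 1174, 1599 and 1275 at gd11. The groups lay far apart. The pnd2 mean was near background, with 1 of the 3 arrays below the limit. The log2 difference was -3.65 ± 0.31 (limma adjusted p = 1.3e-08). Its size depends on the offset, and ran between -4.03 with an offset of 1 and -2.84 with 100. With gd11 replicates 16 and 17 left out it was -3.92 (adjusted p = 5.91e-09).

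The first step of Cdh6 was called on its own. The gd12 arrays read 639, 386 and 180.4, all below the gd11 arrays, and the difference was -1.57 ± 0.31 (limma adjusted p = 0.00132). Without gd11 replicates 16 and 17 it was -1.84 (adjusted p = 0.000422), and those 2 arrays had the lowest Cdh6 of their stage. Mesonephros and duct markers had sums between 5514 and 6737 at gd12, against 4413 to 13198 at gd11. Of 9 measured, Pax8 and Wnt9b fell in that step, 0 rose and 7 did not pass the test, where 21.4% of all genes were called and 10.2% fell. Without those replicates 5 fell and 1 rose, where 10.2% of all genes fell and 10.3% rose. The part of duct tissue in the Cdh6 result was not tested.

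Each later Cdh6 step was negative but none was called. The differences were -0.55 ± 0.34 for gd14 against gd12, -0.38 ± 0.34 for gd16 against gd14, -0.66 ± 0.34 for gd18 against gd16 and -0.49 ± 0.34 for pnd2 against gd18. The step to gd14 was called without gd12 replicate 15 (-1.0, limma adjusted p = 0.0384) and was 0.35 (adjusted p = 0.675) without replicates 13 and 14. The stages stood in their order of age, and the arrays of gd12 and gd14, and of gd14 and gd16, overlapped. The second probe set gave -1.56 ± 0.27 for gd12 against gd11 and -3.05 ± 0.27 for pnd2 against gd11. Its pnd2 mean (71.1) was near background too.

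Cdh11, a mesenchymal cadherin, was bright and changed little. It averaged 7463 ± 1155 at gd11, 8085 ± 1683 at gd12, 7752 ± 430.1 at gd14, 7072 ± 356 at gd16, 6679.65 ± 493 at gd18 and 5763 ± 289.7 at pnd2. The pnd2 arrays read 6098, 5588 and 5605, against 5530.1, 7495, 8049, 7679 and 8561 at gd11. The groups overlapped through gd11 replicate 16, the lowest of its stage. Cdh11 fell by 0.36 ± 0.12 on the log2 scale (limma adjusted p = 0.0218), and its second probe set by 0.42 ± 0.17 (adjusted p = 0.0477).

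That call was lost in 6 of 31 alternatives, with quantile normalization (-0.28, adjusted p = 0.0839), with the 2 stages alone (0.0506), on the other probe set chosen for its variance (-0.42, 0.0518), and without gd11 replicate 20 (-0.30, 0.0536), pnd2 replicate 2 (-0.34, 0.0715) or pnd2 replicate 3 (-0.34, 0.0697). Without gd11 replicates 16 and 17 the difference was -0.49 (adjusted p = 0.000919). Stromal and interstitial markers, 9 measured of 10, moved the other way over the same course. Of these 6 rose, 0 fell and 3 did not pass, where 24.2% of all genes rose and 24.4% fell. Their sum was between 78576 and 87388 at pnd2, against 25043 to 55741 at gd11. Only the lowest neighbour in the order of the stages, pnd2 below gd18, did not overlap, and that step was not called (-0.21 ± 0.14, adjusted p = 0.385).

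Cdh13, known from vessels and heart, lay close to background in the testis at every stage. Its brightest kept probe set averaged 89.0 ± 49.0 at gd11, 104 ± 18.1 at gd12, 99.3 ± 14.0 at gd14, 102 ± 30.8 at gd16, 98.3 ± 25.7 at gd18 and 95.6 ± 33.1 at pnd2. Neighbours in the order of the stages all overlapped, no difference was called, and the F-test gave an adjusted p of 0.942. A second kept probe set differed by -0.99 ± 0.40 for gd12 against gd11 (limma adjusted p = 0.0897) and was near background on 16 of 20 arrays. The other 2 probe sets were near background on all 20 and were removed by the filter. Endothelial markers were measured in the same testes, with sums between 2266 and 2907 at pnd2, against 3493 to 9263 at gd11.

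**Figure D4:**
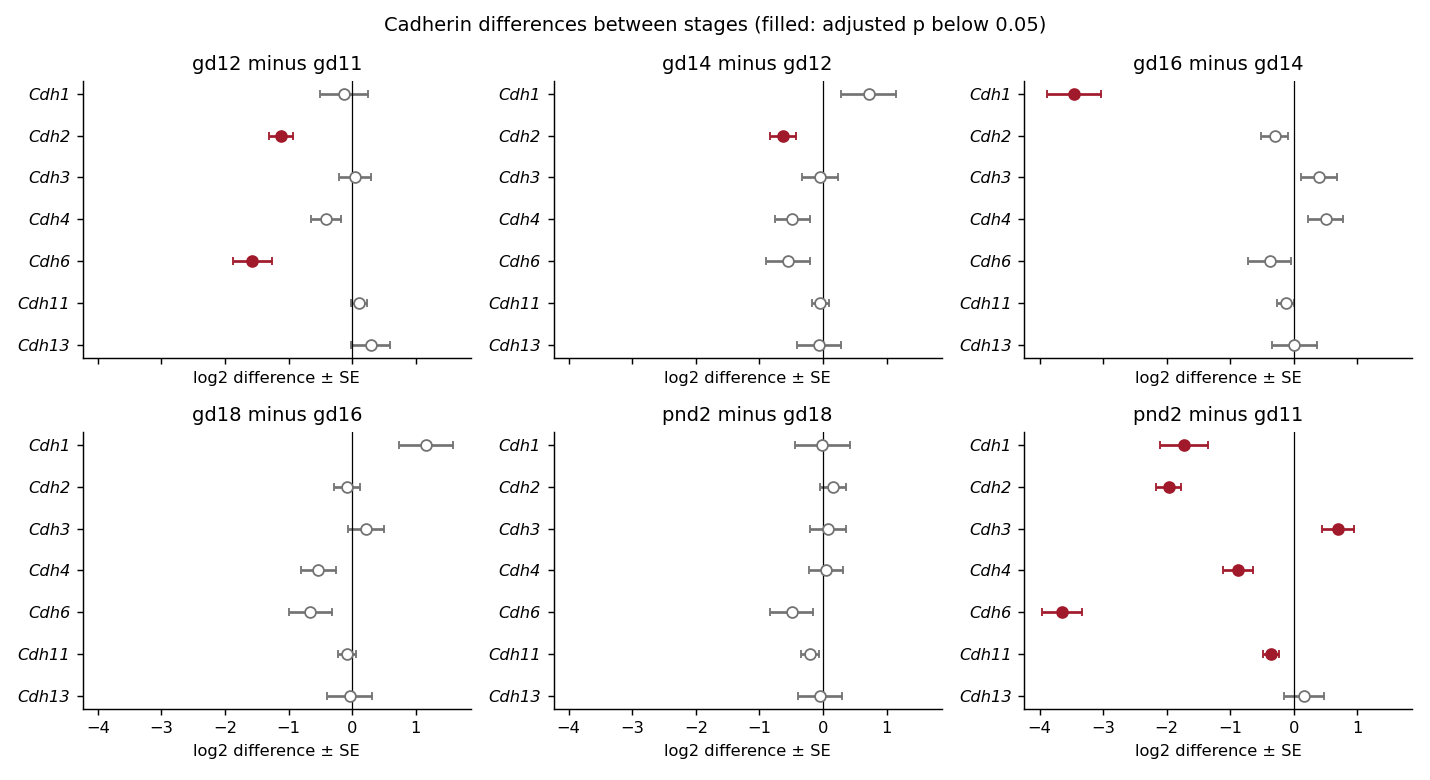
Log2 difference ± SE of each cadherin for the 5 adjacent stage pairs and for pnd2 minus gd11. Filled red points passed an adjusted p of 0.05. Cdh2 and Cdh6 were lower at gd12 than at gd11, Cdh1 fell by 3.46 at gd16 against gd14, and the 2 panels that follow hold open points only.

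Set against whole newborns, the testis at pnd2 was low in some cadherins and high in others. The reference has 1 array and no test was made. Cdh1 read 220.2, 314 and 286 at pnd2 and 3448 in the reference, a log2 difference of -3.56. Cdh13 averaged 95.6 at pnd2 and read 769.5 in the reference (-2.78). Cdh4 averaged 82.3 and read 413 (-2.06), and Cdh6 averaged 69.9 and read 241 (-1.55). Cdh3 averaged 639 at pnd2 and read 294 in the reference (1.03), and Cdh11 averaged 5763 and read 3295 (0.80). Cdh2 averaged 1128 and read 1113 (0.01). The median over all genes was 0.11, so Cdh3 and Cdh11 were the members above it.

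The members' values ran together in part. Over the 20 testis arrays Cdh2 and Cdh6 had a Pearson r of 0.89 (rho 0.82), Cdh2 and Cdh4 0.73 (rho 0.60) and Cdh1 and Cdh6 0.60 (rho 0.64). Cdh3 was negative with Cdh2 (-0.50) and with Cdh6 (-0.52). These coefficients describe arrays that share stages and tissue makeup. Among all genes tested, those whose log2 values correlated most with a member were Slc9a3r1 (r = 0.89), 2810004N23Rik (0.88) and Snx5 (0.87) for Cdh1, and Smug1 (0.98), Wbp1 (0.97) and Sox4 (0.97) for Cdh2. For Cdh3 they were Stat6 (0.89), P3h3 (0.88) and Dlk1 (0.87), and for Cdh4 Gdpd5, Tubb4a and 2810025M15Rik (0.85 each). For Cdh6 they were Limd2 (0.98), Hunk (0.96) and Arhgap28 (0.96), for Cdh11 Mc2r (0.87), Ppp1r3d (0.84) and Pdgfrb (0.83), and for Cdh13 Hoxd10 (0.76), Lrrn3 (0.69) and B3gat1 (0.68).

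Catenins and other proteins of the junction moved in both directions. Of 11 measured of a list of 11, 2 fell between gd12 and gd11, where 21.4% of all genes were called. Ctnnd2, a neural catenin, averaged 70.7 at gd12, near background, and 269.8 ± 221 at gd11 (-1.36 ± 0.39), and Arvcf, a p120 relative, 318 at gd12 and 756 ± 404 at gd11 (-1.04 ± 0.28). Both were uneven over the gd11 arrays. Arvcf differed by -0.51 (limma adjusted p = 0.0323) and Ctnnd2 by -0.64 (adjusted p = 0.0579), which did not pass, without gd11 replicates 16 and 17. Between gd14 and gd12, 2 fell, Ctnna1 (-0.40), the alpha-catenin that binds actin, and Pkp4 (-0.49), where 18.7% of all genes were called. Between gd16 and gd14 Pkp4 rose (0.41), where 10.4% of all genes were called. At pnd2 against gd18, Vcl (vinculin) rose by 0.39 and Ctnnb1 (beta-catenin) fell by 0.22. Over the whole course 2 rose (Ctnnd1, p120-catenin, 0.60, and Vcl, 0.70), 5 fell (Ctnna1 -0.61, Ctnnb1 -0.48, Ctnnd2 -1.33, Arvcf -1.42 and Afdn -0.51) and 4 did not pass, where 24.2% of all genes rose and 24.4% fell. All 7 stayed called without gd11 replicates 16 and 17, with Ctnnd2 at -0.62 and Arvcf at -0.88, and Ctnna2 was called too (2.56, limma adjusted p = 8.19e-08, against 1.35 and 0.0756 with all arrays). The median with all arrays was -0.19, against -0.03 over all genes. Where Cdh1 fell at gd16, Ctnnb1 differed by -0.04 ± 0.07 and Ctnna1 by -0.19 ± 0.12, and neither was called.

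**Figure D5:**
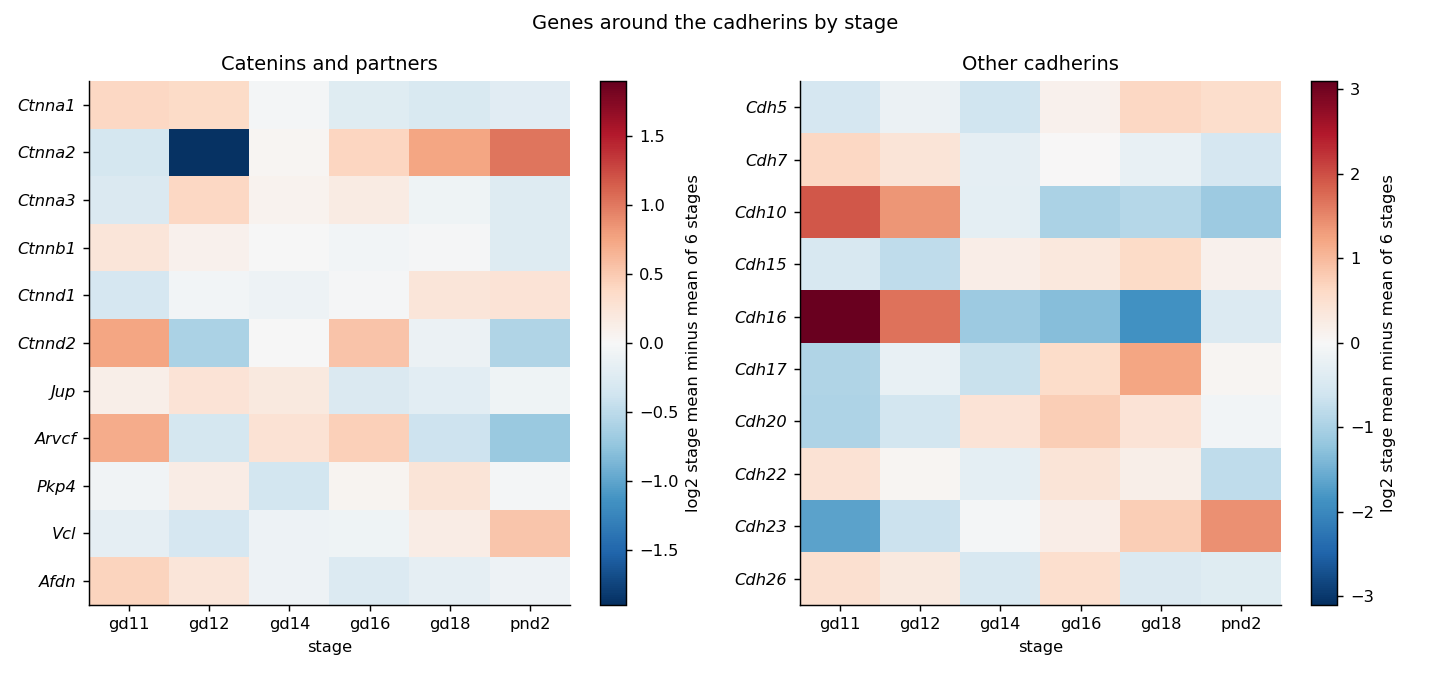
Log2 stage mean of 11 catenins and partners (left) and 10 other cadherins (right), each minus its own mean over the 6 stages. Red is above and blue below a gene's own mean, and the colour scales of the 2 panels differ. Cdh16 and Cdh10 were highest at gd11, Cdh23 was highest at pnd2, and Ctnnb1 stayed close to its mean.

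Other cadherins, 10 measured of a list of 16, moved both ways. Over the whole course 5 rose, 4 fell and 1 did not pass, where 48.6% of all genes were called, 24.2% higher and 24.4% lower. With gd11 replicates 16 and 17 left out, 3 rose, 3 fell and 4 did not pass. Cdh23, of the hair cell tip link, had a higher mean at each later age and rose over the course, with 546 ± 89.8 at pnd2 against 46.1 ± 18.2 at gd11, near background (3.08 ± 0.23, limma adjusted p = 2.81e-09), and its first step passed alone (0.99, adjusted p = 0.00494). Cdh16, the kidney-specific cadherin, averaged 101 ± 63.5 at pnd2 and 1662 ± 1285 at gd11 (-3.47 ± 0.64, adjusted p = 0.000174). Its step to gd14 was -2.80 ± 0.71, with 47.8 ± 10.5 at gd14, near background, and an uneven 641 ± 636 at gd12. The size of that step depends on the offset. Cdh10 differed by -1.67 ± 0.38 in that same step and by -3.05 ± 0.34 over the course, and Cdh22 by -1.25 ± 0.37 over the course, all called. Cdh10 and Cdh22 were near background at pnd2 (21.5 and 32.3), so these sizes depend on the offset. In the fit without those replicates the course differences were 3.33 for Cdh23, -4.29 for Cdh16 and -3.41 for Cdh10, all called, and -0.88 for Cdh22 (limma adjusted p = 0.0682), which did not pass.

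Of transcription factors known to repress or uphold E-cadherin, 13 of 14 were measured, and 1 was called in the step where Cdh1 fell, against 10.4% of all genes. Zeb1, a repressor, rose by 0.56 ± 0.14 between gd16 and gd14 (2670 ± 161 at gd16 and 1806 ± 139 at gd14, limma adjusted p = 0.0159), 0 fell and 12 did not pass. In the step before, gd14 against gd12, Grhl2 (2.17 ± 0.33) and Grhl3 (1.10 ± 0.37), which uphold epithelial genes, rose, and Snai2 (-0.98) and Zeb1 (-0.47) fell. In that step Cdh1 differed by 0.72 ± 0.43 (limma adjusted p = 0.264). Its arrays read 1553, 1469.95 and 1292 at gd14, above 569, 1187 and 943 at gd12. Grhl2 was highest at gd16, where Cdh1 was lowest, with 925 ± 259 against 458 ± 67.9 at gd14 (0.96 ± 0.33, limma adjusted p = 0.0683). Its relatives went the other way between gd16 and gd14, and neither was called. Grhl3 differed by -0.93 ± 0.37 (limma adjusted p = 0.115) and Grhl1 by -0.93 ± 0.34 (0.0906). Grhl1 averaged 43.7 at gd16, near background, and was named after its values were seen. Zeb1 averaged 2261 ± 407 at gd11 and 2514 ± 154 at gd12, before Cdh1 fell. The part of these factors in the Cdh1 result was not tested. Over the whole course 4 rose, 4 fell and 5 did not pass, where 24.2% of all genes rose and 24.4% fell. The counts were the same without gd11 replicates 16 and 17, but only 7 genes were called in both fits. Snai2 differed by -1.24 with all arrays. Snai3 (1.73) and Ovol2 (1.29) were near background at gd11 (29.6 and 67.4) and Ovol1 (-1.24) at pnd2 (22.5), so the sizes of these 3 depend on the offset.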

How the data were processed

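Total RNA of whole testes was measured on single-colour Affymetrix arrays with a biotin label, per the labels. The deposited values are linear intensities per probe set that the authors made with GCOS, per the submitters' processing notes (version not given in the sources used here). The mean of each of the 21 arrays, without the lowest and highest 2% of probe sets, was 500.0. Genes were named from the platform table, with Entrez identifiers matched to a GRCm38.p6 gene table (34741 of 34945 probe sets). Probe sets with several genes (932) or none (9160) and 64 control probe sets were left out.

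Intensities were taken as log2(intensity + 22.4), 22.4 being the 20th percentile of testis values, which understates changes of dim genes. A probe set was kept if at least 3 testis arrays held it above their 40th percentile. The fit was limma 3.58.1 in R 4.3.3 (lmFit, eBayes with an intensity trend) with 6 stage means, and each comparison was adjusted over 14338 genes. The fit shares 1 spread over all stages. It was run on simulated data in which each gene had the same spread at every stage, so that run does not check the shared spread. In the data the spread differed between stages (for Cdh1, an SD of 806 at gd11 and 15 at gd18). The members and the gene lists were chosen with earlier results of these data known, so their counts are descriptions. Named were all members, the 3 genes most correlated with each member (Pearson r of log2 values), all catenins and partners, from each other list up to 4 called genes with the largest difference in a comparison discussed, and the genes of a summed marker list. Alternatives were quantile normalization, other offsets (1 and 100), other filters, the 2 stages alone, all probe sets, another probe set per gene, array weights, and arrays left out singly or in pairs. The gene lists without gd11 replicates 16 and 17 were an alternative added after seeing the data. The labels name no batch to test. No pair of arrays held identical values. The design text places each animal with a dam of its own.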

Additional observations from a re-analysis of the deposited data

How the results depend on the processing

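Of the 10 called cadherin differences, 276 of 309 values under other settings stayed called, 33 lost the call and 0 reversed. In all, 7 differences were called under every setting run. The 3 that were not are Cdh2 at gd14 against gd12 and Cdh3 and Cdh11 at pnd2 against gd11. Of the 32 differences not called, 6 values of 981 gained a call. The number of members called at gd14 against gd12 was 1 and became 0 with no filter on dim probe sets, with only the 2 stages compared, with the probe set of the highest variance, with array weights and no trend, and without gd12 replicates 13 and 14. Leaving out single arrays it ranged between 0 and 2. At gd16 against gd14 it was 1 and became 2 with array weights, where Cdh4 was called too (0.55, adjusted p = 0.0365). At gd18 against gd16 it was 0 and became 1 with only the 2 stages compared, with array weights, and without gd11 replicates 16 and 17, and single arrays left out gave 0 to 1. Fewer samples or genes enter several of these fits, and beyond that the cause was not tested. A filter at the 60th percentile left out Cdh4 and Cdh13. Against the reference, Cdh2 differed by 0.01 as reported and by -0.13 with quantile normalization of all arrays. No paired analysis was possible because replicate numbers run over the whole series and are shared by no groups. Low levels limit what a difference can show (Cdh13, not far above background, and Cdh6 at pnd2, with a mean near background and 1 of 3 arrays below the limit). So do the gd11 and gd12 arrays with high neural sums.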

Other observations

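Of 20 measured protocadherins, Fat, Dachsous, Celsr and desmosomal cadherins on a list of 28, 14 fell, 2 rose and 4 did not pass the test at pnd2 against gd11, where 24.4% of all genes fell and 24.2% rose. The median log2 difference was -0.83, against -0.03 over all genes. In a fit without gd11 replicates 16 and 17, added after seeing the data, 14 fell, 0 rose and 6 did not pass, and 13 genes were called in both. The neural sum moved over the same course, between 1445 and 1624 at pnd2 against 4373 to 78426 at gd11, and several of these genes were uneven over the gd11 arrays (709 ± 702 for Pcdh8 and 678 ± 609 for Celsr2). The part of neural tissue in these differences was not tested. Pcdh17 averaged 50.9 ± 16.0 at pnd2 and 464 ± 124 at gd11 (-2.72 ± 0.30), Pcdh19 132.7 ± 41.9 and 619.65 ± 103 (-2.07 ± 0.33), and Pcdh20 38.1 ± 15.3 and 226 ± 26.3 (-2.07 ± 0.26), with both Pcdh17 and Pcdh20 near background at pnd2. Pcdh8 differed by -2.0 ± 0.54, and by -0.95 (adjusted p = 0.00591) without gd11 replicates 16 and 17. The 2 that rose were Fat1, a giant cadherin (0.52 ± 0.17), and Pcdh9 (0.43 ± 0.15), and neither passed without those replicates (0.34, limma adjusted p = 0.105, and 0.40, 0.0628). Between gd16 and gd14 Pcdh9 alone of the 20 was called, where 10.4% of all genes were. It rose by 0.80 ± 0.17 (limma adjusted p = 0.00685). In the step before, gd14 against gd12, 18.7% of all genes were called. There Pcdh8 rose (1.95 ± 0.60), and Pcdh20 (-1.50), Pcdh17 (-1.09) and the desmosomal Dsg2 (-1.08) and Dsc2 (-1.04) fell. Fat1, Pcdh9 and Dsc2 were named after their values were seen.

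Of 10 measured nectins, Jams and Cadms, adhesion molecules of the immunoglobulin class on a list of 12, 3 rose, 2 fell and 5 did not pass at pnd2 against gd11. That is close to the 48.6% of all genes that were called, 24.2% higher and 24.4% lower. Without gd11 replicates 16 and 17, 5 rose, 1 fell and 4 did not pass. Jam2 averaged 1725 ± 67.5 at pnd2 and 338 ± 309 at gd11 (2.74 ± 0.45, limma adjusted p = 5.72e-05), F11r rose by 0.93 and Nectin2 by 0.65, and Cadm3 fell by 1.13 on the log2 scale. Without those replicates Jam2 differed by 3.66 and Cadm3 by -0.61 (adjusted p = 0.242), which did not pass. Of 7 measured proteases known to cut or mature cadherins, 4 rose (Mmp9, Psen2, Ncstn and Furin), 1 fell (Adam10, the main E-cadherin sheddase, -0.40 ± 0.10) and 2 did not pass, and without those replicates 3 rose and 1 fell. Adam10 also fell between gd14 and gd12 (-0.51 ± 0.11). Adam10 was named after its values were seen.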
